A study of Homo sapiens with 6 samples.

Results

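The variant histone mRNAs described here are the products of 10 genes whose transcripts are polyadenylated: H2AFX, H2AFV, H2AFY, H2AFY2, H2AFZ, H2AFJ, H3F3A, H3F3B, H1F0 and H1FX. They were chosen by symbol from the 26364 genes of the deposited count table. All 10 are listed there, 9 had counts and 8 passed the filter on low counts. The RNA is from HEK293T, a transformed line of human embryonic kidney origin, and all cells had received 200 nM okadaic acid for 3 h, so no library of cells without the drug enters the comparison. Okadaic acid inhibits phosphatases that remove phosphate from UPF1, a helicase that nonsense-mediated decay of mRNA (NMD) depends on. The 3 p-UPF1 IP libraries (replicates 3, 6 and 9) hold RNA that came down with an antibody to phosphorylated UPF1. The 3 control libraries (replicates 1, 4 and 7) are titled pre-IP, but their antibody label is rabbit IgG, and whether they are input RNA or a mock immunoprecipitation is therefore unclear. Nothing says that replicates were separate cultures, and a p-value here speaks only of the spread among the libraries, technical spread included.

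Most histone mRNAs are made in S phase from the intronless HIST genes and end in a conserved stem-loop instead of being polyadenylated. SLBP binds that stem-loop, and UPF1 takes part in the rapid decay of these mRNAs when DNA synthesis stops. Variant histones are made outside S phase as well, from genes that mostly carry a poly(A) signal and often introns. Several of their proteins mark particular chromatin: H2A.Z (H2AFZ, H2AFV) at promoters, H3.3 (H3F3A, H3F3B) in transcribed genes, phosphorylated H2A.X (H2AFX) at DNA breaks, and macroH2A (H2AFY, H2AFY2) in silent chromatin. H1.0 and H1.10 (H1F0, H1FX) are linker histones. The comparison asks which of these mRNAs are over- or under-represented with p-UPF1.

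Pre-IP libraries held 600244 to 1179369 counts and p-UPF1 IP libraries 905926 to 2057647, with no molecular identifiers described, so intervals and floors cover counting error only. The 10 most counted genes held 32.6% to 36.2% of the pre-IP counts, against 7.46% to 12.7% with p-UPF1, so the scaling between libraries bears on every fold change. Of 6 genes fixed as marks of HEK293T cells (VIM, KRT8, KRT18, NEFM, NEFL and LIN28B) all 6 were tested, with 599 counts in the control and 4713 with p-UPF1; 0 were called with TMM scaling, and 4 were higher with library totals alone. Of 20 markers of other cell types 0 passed the filter, and all 20 together had 7 and 36 counts.

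The ends of the transcripts are shown first because they separate H2AFX from the other variant histones. In the longest protein-coding transcript of each gene (GENCODE release 29, GRCh38), H2AFX alone of the 10 held the histone stem-loop consensus, 16 nt long, read on the transcript strand. It lay 49 nt after the stop codon and 1044 nt before the transcript end. The consensus was found in 34 of 19669 protein-coding genes (0.173%), 29 of them among 71 HIST genes. The H2AFX mRNA is known in a short form that ends after the stem-loop and a longer polyadenylated form, and gene-level counts pool both. Below, capitals mark the stem-loop in H2AFX and in HIST1H2AC and HIST1H4H, replication-dependent H2A and H4 genes shown for comparison (picked after the search).
H2AFX, chr11:119094893-119094918, minus strand: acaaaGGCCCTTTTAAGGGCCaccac
HIST1H2AC, chr6:26124664-26124689, plus strand: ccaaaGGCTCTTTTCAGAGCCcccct
HIST1H4H, chr6:26285126-26285151, minus strand: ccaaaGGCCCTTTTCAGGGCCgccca
Counted from the first base of the stem-loop, HIST1H4H differs from H2AFX by A10C, in the loop, and HIST1H2AC by C4T, A10C and G13A. Positions 4 and 13 face each other in the stem, and all 6 pairs of the stem form in each of these genes.

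A poly(A) signal near the end was common to most of the variant histones. AATAAA occurred in the last 50 nt of the transcript in 6 of the 10 (H2AFY2, H2AFZ, H2AFJ, H3F3B, H1F0 and H1FX), against 60.2% of all protein-coding genes. The variant ATTAAA occurred in H2AFX and H2AFV, against 17.3% of all. Neither was found in that window for H2AFY and H3F3A. Capitals mark the signal in the transcripts on which the results turn most.
H2AFX, chr11:119093877-119093906, minus strand: ctaattttATTAAAggattgtttttttttt
H2AFZ, chr4:99948088-99948115, minus strand: ataagttcAATAAAggtcatatcccaaa
H3F3B, chr17:75776434-75776461, minus strand: gagactaaAATAAAatttttgaagttaa
H1FX, chr3:129314771-129314800, minus strand: ttgggcacAATAAAgcgtttaaacctttca
The same transcripts had 1 exon in H2AFX, H2AFJ, H1F0 and H1FX, 3 in H3F3A, 4 in H3F3B, 5 in H2AFZ and H2AFV and 9 in H2AFY and H2AFY2. The sequence after the stop codon ran from 166 nt in H2AFJ to 3353 nt in H2AFV. An exon junction after the stop codon is the arrangement best known to trigger NMD, and transcripts of 1 exon cannot have it. None of these 10 transcripts, all annotated as protein-coding, had such a junction. Transcripts annotated as NMD targets were left out of that choice: the annotation holds 1 for H2AFX, 1 for H2AFY and 2 for H2AFJ, and gene-level counts cannot tell them apart from the others.

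As a group, the variant histones took a larger share of all counts in p-UPF1 IP but a smaller one relative to most other genes. Their summed count was 0.119%, 0.0915% and 0.113% of the library in pre-IP and 0.169%, 0.160% and 0.215% in p-UPF1 IP (mean 0.108% ± 0.0146 and 0.181% ± 0.0297, SD, n = 3 each), and every p-UPF1 IP library was above every pre-IP library. After TMM scaling, which sets the bulk of genes level between libraries, the sum was 1871 ± 84.8 CPM (counts scaled to a common library size of 1e6) in the pre-IP libraries and 1075 ± 14.6 in the p-UPF1 IP libraries, and the order was the opposite. Both sums are relative to the other RNA of a library, and neither measures RNA per cell.

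Of the 8 variant histones tested, 3 fell (H3F3B, H2AFZ and H2AFV) and 0 rose by the quasi-likelihood F-test of edgeR with TMM scaling (Benjamini-Hochberg 0.05 over 8070 genes). Of all tested genes 19.7% were called: 10.9% fell and 8.81% rose. H1FX was higher at an unadjusted edgeR p under 0.05 (0.0108), and DESeq2 called it higher. The shares of all genes passing on these readings are not given here, so neither is read as a result about H1FX. The median log2 fold change of the 8 was -0.59, against 0.10 for all tested genes. With library totals alone as the scale 4 of 8 rose (H2AFX, H2AFY, H1F0 and H1FX) and 0 fell, where 61.6% of all genes were called, 59.6% up and 2.03% down, and the medians were 0.96 for the 8 and 1.604 for all genes. The change of scale shifts all genes about alike, so the distance between the medians is kept by construction, while the sign of 7 of the 8 folds turned from negative to positive. Groups did not overlap in 5 of the 8 on the lower side (17.7% of all genes) and in H1FX on the higher side (21.9%) with TMM, and in 6 on the higher side (68.7%) and 0 on the lower (2.64%) with library totals.

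**Figure D1:**
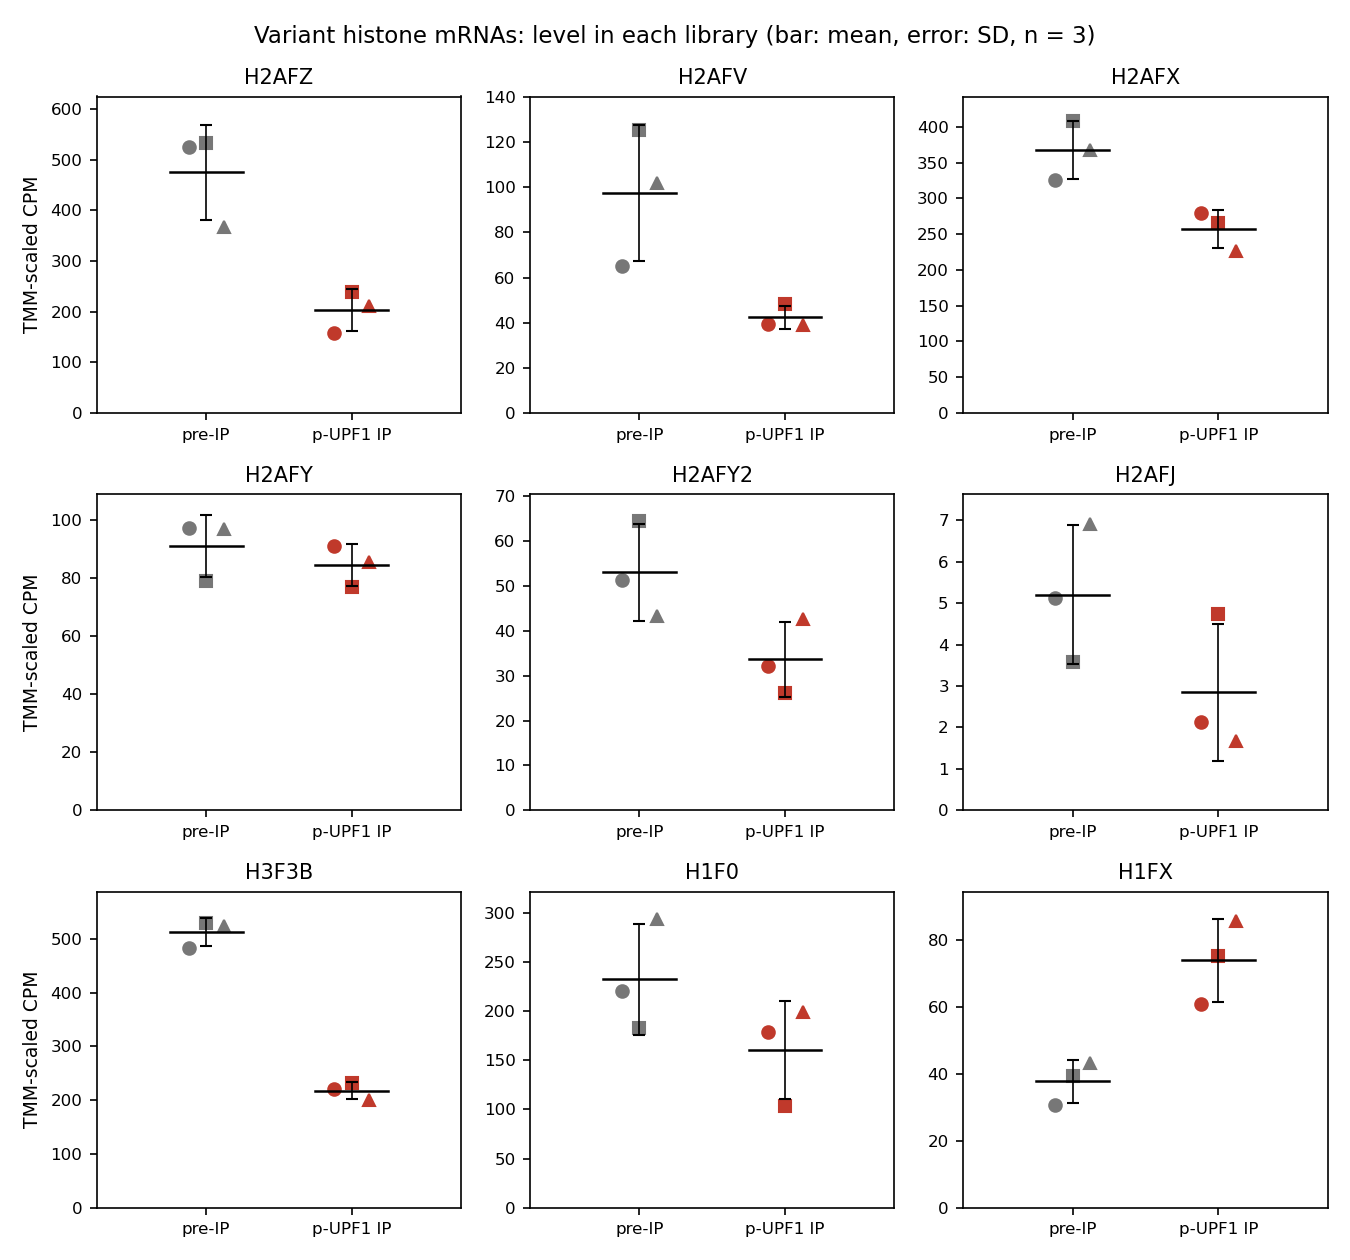
TMM-scaled CPM (y axis, from 0) of 9 variant histone genes in each of 3 pre-IP (grey) and 3 p-UPF1 IP (red) libraries, with the mean and SD; marker shapes only tell libraries apart. H3F3B, H2AFZ, H2AFV, H2AFX and H2AFY2 were lower in every p-UPF1 IP library and H1FX higher, whereas with library totals alone no gene was lower in every p-UPF1 IP library.

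The H2A.Z genes fell together on the TMM scale. H2AFZ, which encodes H2A.Z.1, had 525, 534 and 366 CPM in pre-IP and 159, 239.5 and 211 in p-UPF1 IP, so that the lowest pre-IP library was above the highest p-UPF1 IP library. The means were 475 ± 94.1 and 203 ± 41.1 (SD, n = 3), and the log2 fold change was -1.22 (SE 0.32, edgeR adjusted p = 0.0123). H2AFV, which encodes H2A.Z.2, had 65.3, 125 and 102 CPM in pre-IP and 39.4, 48.4 and 39.1 in p-UPF1 IP, again without overlap, although pre-IP replicate 1 lay well below the other pre-IP libraries. Its log2 fold change was -1.17 (SE 0.33, edgeR adjusted p = 0.0206). With library totals alone both were positive and neither was called (0.32 and 0.37, edgeR adjusted p = 0.413 and 0.383). When p-UPF1 IP replicate 3 was left out the H2AFZ call was lost (edgeR adjusted p = 0.0915). The H2AFV call was lost with that library left out (0.0951), and with p-UPF1 IP replicate 9 (0.0931), pre-IP replicate 4 (0.0642) or pre-IP replicate 7 (0.0510) left out, and without a filter on low counts (0.0621). Of the 30-nt stretches of the H2AFZ transcript 24.2% recur in the transcripts of 5 other annotated genes, among them H2AFZP2 and H2AFZP3, so its count depends on how reads with several matches were treated.

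H3F3B, one of the genes that encode H3.3, had the lowest log2 fold change of the 8. It had 482, 529.9 and 524 CPM in pre-IP and 221, 232 and 200.2 in p-UPF1 IP. Both groups were tight, at 512 ± 25.8 and 218 ± 16.1 CPM (SD, n = 3), and lay far apart. The log2 fold change was -1.23 (SE 0.30, edgeR adjusted p = 0.00854), a level 2.35-fold lower, and the call held without each library in turn, at its weakest without p-UPF1 IP replicate 3 (edgeR adjusted p = 0.0495). With library totals alone it was 0.30 (edgeR adjusted p = 0.417). Of the 30-nt stretches of the H3F3B transcript 14.5% recur in H3F3C, and UNK overlaps the gene on the other strand. Its count too therefore depends on how such reads were treated. H3F3A, the other gene for H3.3, is listed at 0 in all 6 libraries. A count of 0 allows up to 3 counts over a group, or 1.10 CPM in the pre-IP libraries and 0.625 in the p-UPF1 IP libraries, for counting error only. Its pseudogene H3F3AP4 is listed at 0 too, and 13.8% of the 30-nt stretches of the H3F3A transcript recur in transcripts of 17 other genes. The table cannot tell apart missing RNA, reads with several matches left uncounted and reads shared between annotated genes, so nothing is drawn for H3F3A.

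H2AFX had the most counts over all 6 libraries (2630), though in pre-IP alone H3F3B (828) and H2AFZ (771) had more than H2AFX (582). It encodes H2A.X, which is phosphorylated around DNA breaks. It had 326, 408 and 368 CPM in pre-IP and 279, 265 and 227 in p-UPF1 IP, without overlap, yet the log2 fold change of -0.51 (SE 0.30) did not pass the test (edgeR adjusted p = 0.238). With library totals alone it was 1.03 and called (edgeR adjusted p = 0.0106). H2AFJ, an H2A gene known to accumulate in senescent cells, was too thinly counted to test. It had 4, 1 and 4 counts in pre-IP and 7, 13 and 3 in p-UPF1 IP. With TMM its means were 5.203 ± 1.67 and 2.85 ± 1.65 CPM (SD, n = 3), with overlap. As a share of all counts the ratio of p-UPF1 IP to pre-IP was 1.45, the opposite direction, with an exact (Clopper-Pearson) 95% counting interval of 0.646 to 3.56 that includes no difference.

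The macroH2A genes did not pass the test with TMM. H2AFY, which encodes macroH2A1, had 97.2, 78.8 and 96.8 CPM in pre-IP and 91.0, 76.8 and 85.6 in p-UPF1 IP, and the groups overlapped throughout. Its log2 fold change was -0.12 (SE 0.29, edgeR adjusted p = 0.808), or 1.40 with library totals alone (edgeR adjusted p = 0.00371). H2AFY2, which encodes macroH2A2, had 51.2, 64.5 and 43.2 CPM in pre-IP and 32.1, 26.2 and 42.5 in p-UPF1 IP, where replicate 9 nearly reached the lowest pre-IP library. Its log2 fold change was -0.64 (SE 0.37, edgeR adjusted p = 0.239), or 0.92 with library totals alone (edgeR adjusted p = 0.0722). Of the 30-nt stretches of the H2AFY transcript 25.3% recur in 2 genes annotated on the other strand, C5orf66 and AC026691.1, and without a stated strand setting such reads cannot be told apart.

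The linker histones went different ways. H1FX, which encodes H1.10, had 30.7, 39.4 and 43.2 CPM in pre-IP and 60.8, 75.4 and 85.6 in p-UPF1 IP, with every p-UPF1 IP library above every pre-IP library. The means were 37.8 ± 6.40 and 73.9 ± 12.5 (SD, n = 3), and the log2 fold change of 0.98 (SE 0.34) just missed the threshold (edgeR adjusted p = 0.0532). None of the other 7 had a positive log2 fold change under TMM, and H1FX passed in 7 of 19 alternatives, among them RLE scaling (0.0487) and library totals alone (2.52, edgeR adjusted p = 8.8e-05). The raw counts behind it were 24, 11 and 25 in pre-IP and 199, 207 and 153 in p-UPF1 IP. H1FX-AS1, antisense to H1FX, had 3 and 1 counts, and 19.7% of the 30-nt stretches of H1FX recur in it. H1F0, which encodes H1.0 of slowly dividing cells, had 220.1, 183 and 294 CPM in pre-IP and 179, 104 and 199 in p-UPF1 IP, with overlap. Its log2 fold change was -0.54 (SE 0.32, edgeR adjusted p = 0.240), or 1.004 with library totals alone (edgeR adjusted p = 0.0310).

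**Figure D2:**
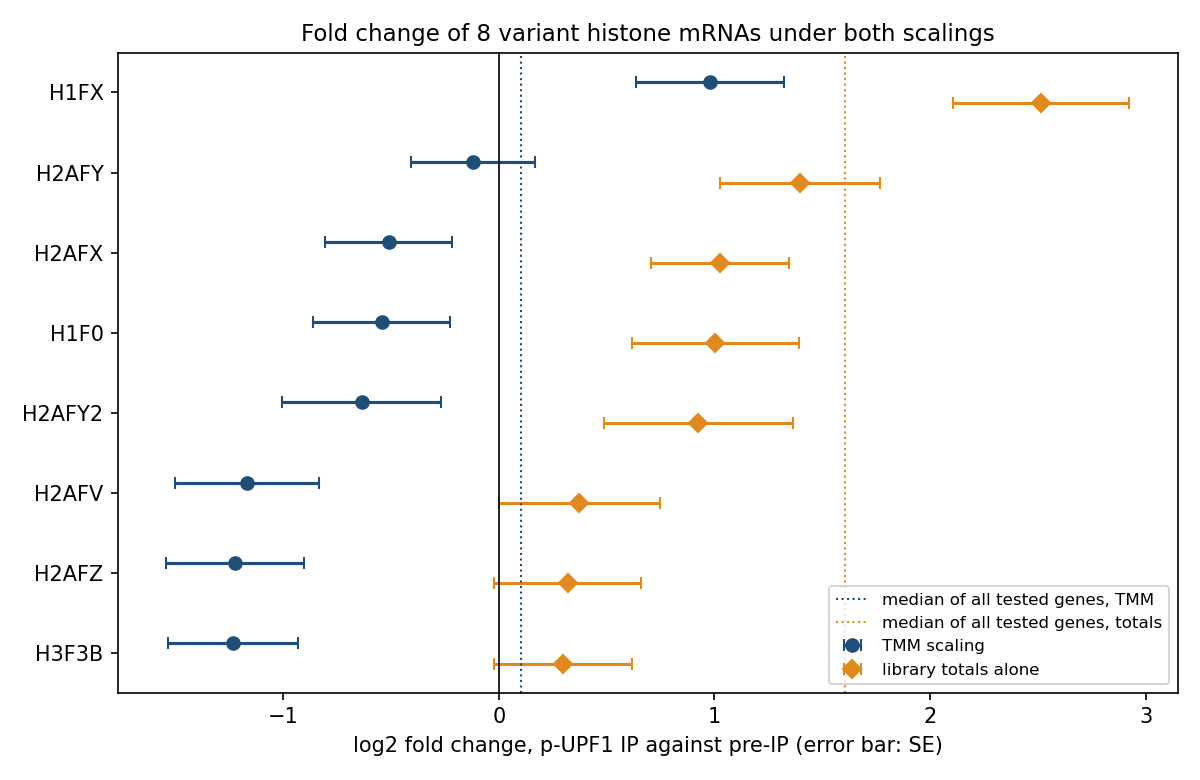
Log2 fold change of p-UPF1 IP against pre-IP (x axis, bars: SE) for 8 variant histone genes with TMM scaling (blue circles) and library totals alone (orange diamonds); dotted lines mark the medians of all tested genes, 0.10 and 1.604. The order of the genes is the same on both scales, from H3F3B lowest to H1FX highest, while all but H1FX turn sign.

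Ratios between genes within a library do not depend on the scaling between libraries, and they separated some variant histones from each other. They still carry any trend with transcript length or with GC content, which was 66.4% in H2AFX and 68.6% in H1FX but 43.1% in H3F3B. With a GC trend removed (values further below), H2AFX lay below H3F3B in log2 fold change, while H1FX stayed above it. The pairs were chosen after the levels had been seen, and 3 libraries against 3 cannot give an exact permutation p below 0.1, so they are given without a test. The ratio of H1FX to H1F0 counts was 0.140, 0.216 and 0.147 in pre-IP and 0.340, 0.726 and 0.431 in p-UPF1 IP, higher in each p-UPF1 IP library. The ratio of H2AFX to H3F3B was 0.676, 0.770 and 0.703 in pre-IP and 1.26, 1.14 and 1.13 in p-UPF1 IP (means 0.717 ± 0.0484 and 1.18 ± 0.0727, SD, n = 3). H3F3B was thus the more counted of the pair in each pre-IP library and H2AFX in each p-UPF1 IP library. The ratio of H1FX to H3F3B differed most, with means of 0.0735 ± 0.00945 and 0.343 ± 0.0776, a 4.66-fold difference of means. By contrast, the ratio of H2AFZ to H3F3B overlapped between the groups, at 0.931 ± 0.205 and 0.935 ± 0.188. Their transcripts differ in length (979 and 2705 nt), and with the length trend removed H2AFZ lost its call while H3F3B kept its own. The ratio of H2AFZ to H2AFV also overlapped, at 5.30 ± 2.40 and 4.79 ± 0.696, with pre-IP replicate 1 at 8.04 and the other pre-IP libraries at 4.26 and 3.59. The ratio of H2AFY to H2AFY2 was 1.79 ± 0.518 and 2.59 ± 0.505, with overlap.

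**Figure D3:**
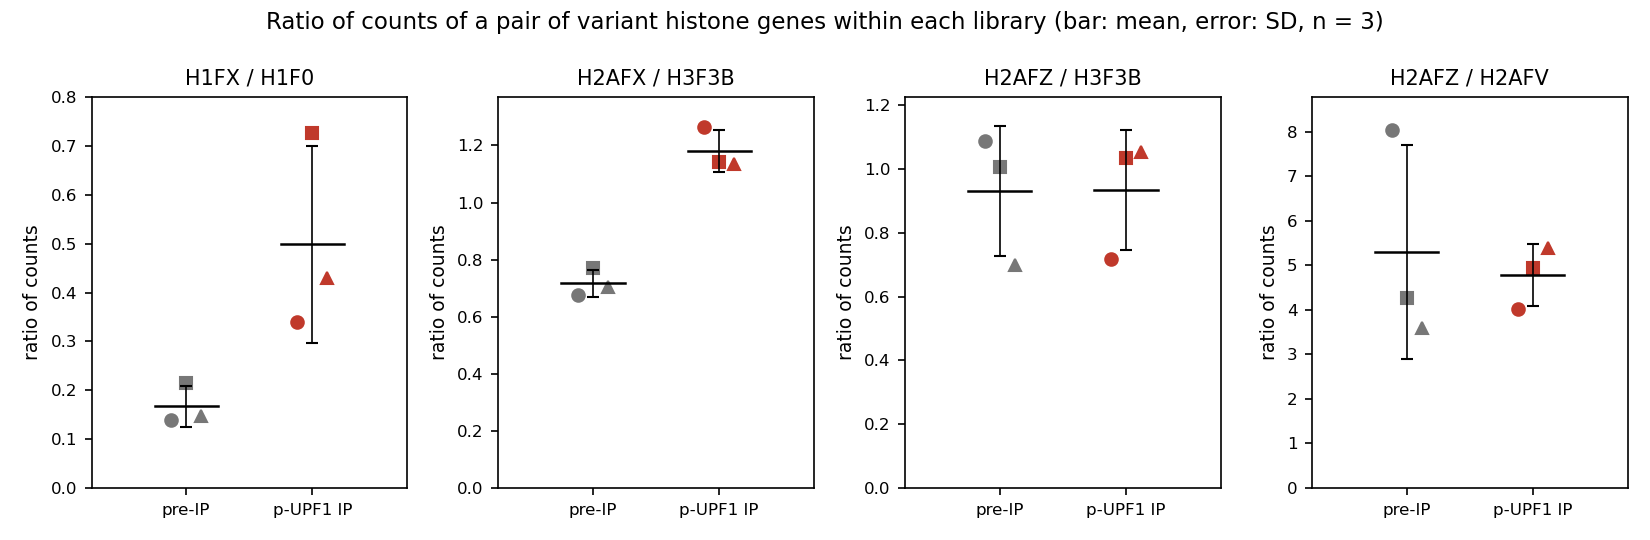
Ratio of the counts of paired variant histone genes (y axis, from 0) within each of 3 pre-IP (grey) and 3 p-UPF1 IP (red) libraries, with mean and SD; marker shapes only tell libraries apart. H1FX / H1F0 and H2AFX / H3F3B were higher in every p-UPF1 IP library, and H2AFZ / H3F3B and H2AFZ / H2AFV overlapped. The ratios are not corrected for GC content or length, and with the GC trend removed H2AFX lay below H3F3B in log2 fold change. With the length trend removed H2AFZ lost its call and H3F3B kept its own.

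As shares of the summed count of the 10 genes, H2AFX, H2AFY and H1FX were higher in every p-UPF1 IP library and H3F3B lower. On that scale 47.7% of all tested genes were higher without overlap and 7.1% lower. H3F3B held 26.8%, 27.0% and 28.4% of the sum in pre-IP and 20.8%, 21.6% and 18.3% in p-UPF1 IP. H2AFX held 18.1%, 20.8% and 19.96% in pre-IP and 26.3%, 24.7% and 20.8% in p-UPF1 IP, where the lowest p-UPF1 IP library was barely above the highest pre-IP library. H1FX held 1.70% to 2.34% of it in pre-IP, against 5.72% to 7.84% with p-UPF1, and H2AFY 4.01% to 5.39% and 7.17% to 8.57%.

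Per kilobase of the longest protein-coding transcript, TMM-scaled levels in pre-IP ran from H2AFZ (485 ± 96.1 CPM per kb, SD, n = 3) through H2AFX (228 ± 25.4), H3F3B (189 ± 9.55) and H1F0 (99.0 ± 24.1) to H2AFY, H2AFY2, H2AFV and H1FX (32.6, 26.7, 25.6 and 25.1) and H2AFJ (8.08). The first 4 did not overlap with their neighbours, and the ranges of H2AFY, H2AFY2, H2AFV and H1FX overlapped. In p-UPF1 IP the order was H2AFZ (207 ± 42.0), H2AFX (159 ± 16.7), H3F3B (80.5 ± 5.94), H1F0 (68.4 ± 21.3), H1FX (49.0 ± 8.27), H2AFY (30.3 ± 2.57), H2AFY2 (17.0 ± 4.17), H2AFV (11.1 ± 1.39) and H2AFJ (4.42 ± 2.56). H2AFZ and H2AFX overlapped there, as did H3F3B with H1F0 and H1F0 with H1FX, while H1FX stood above H2AFY without overlap. The levels depend on the transcript taken: those of H2AFV annotated as protein-coding run from 439 to 3804 nt. Those of H3F3B run from 468 to 2705 nt, with a median of 581. The order given is that for the longest transcripts, and a shorter one would place H3F3B higher.

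The replication-dependent HIST mRNAs are the nearest group of mRNAs. Their classes did not move alike. With TMM 10 of 13 tested H2A genes fell, 9 of 12 H2B, 7 of 7 H3 and 8 of 8 H4, and 0 rose, while of 3 tested linker H1 genes 0 were called in either direction. Their median log2 fold changes were -1.61 (H2A), -1.58 (H2B), -1.68 (H3), -1.95 (H4) and -0.06 (H1), and the first 4 were -0.07, -0.09, -0.14 and -0.42 with library totals alone. In all 34 of 43 HIST genes fell with TMM, against 10.9% of all tested genes. On library totals 2 rose and 2 fell, against 59.6% and 2.03% of all. With the length trend removed 5 fell, and 22 fell without pre-IP replicate 7, and 19 without p-UPF1 IP replicate 6. In those settings fewer of all tested genes fell as well. With TMM and no length or GC correction, H2AFX, H2AFY and H2AFY2 lay above the whole range of the tested HIST H2A genes (-2.42 to -1.01). H2AFZ and H2AFV lay within it. H3F3B lay within the range of the HIST H3 genes (-2.09 to -1.13). H1FX lay above and H1F0 below the 3 HIST H1 genes (-0.34 to 0.16). These are positions of fitted values, and the differences were not tested. Removing the length trend moved many HIST genes up, and removing the GC trend put H2AFX at -1.45. Whether these positions hold under either correction was not examined.

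The most counted HIST gene of each class had log2 fold changes of -0.06 (HIST1H1E, edgeR adjusted p = 0.9502), -2.13 (HIST2H2AC, 0.00439), -0.67 (HIST1H2BD, 0.319), -1.48 (HIST1H3B, 0.0299) and -1.78 (HIST1H4D, 0.00999). All but HIST2H2AC among them were positive with the length trend removed, and HIST1H1E, HIST1H2BD and HIST1H3B with library totals alone. The summed count of the H2A variants was 0.0703, 0.155 and 0.0540 of that of the HIST H2A genes in pre-IP and 0.110, 0.246 and 0.134 in p-UPF1 IP, with overlap between the groups. For H3 the ratio was 0.0689, 0.133 and 0.0569 in pre-IP and 0.0749, 0.190 and 0.0817 in p-UPF1 IP, and for H1 0.0778, 0.164 and 0.0789 and 0.0568, 0.165 and 0.0765, both with overlap. Libraries 4 and 6 had the highest ratio of their group in all 3 classes. Set beside the library of the same triplet of label numbers (1 and 3, 4 and 6, 7 and 9), which the labels do not call pairs, the H2A and H3 ratios were higher in p-UPF1 IP in each of 3, and the H1 ratio in 1 of 3.

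**Figure D4:**
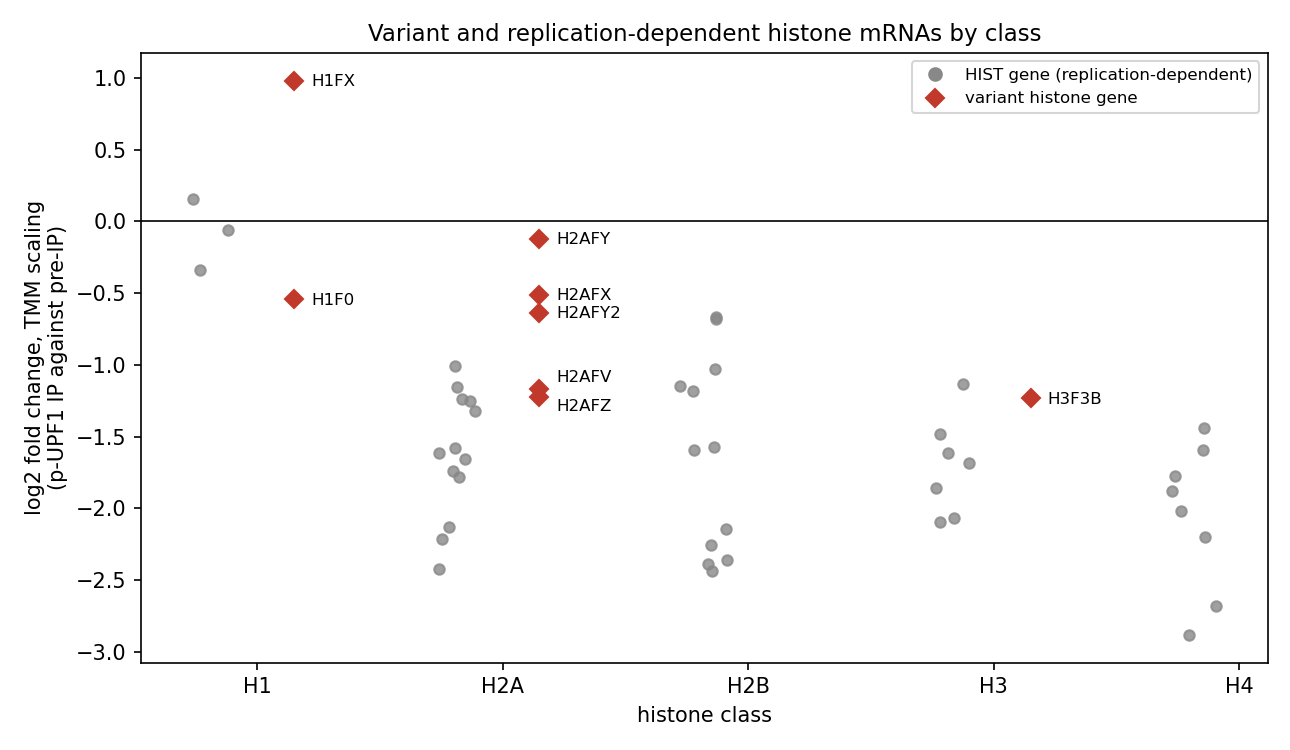
Log2 fold change with TMM scaling (y axis) of each tested HIST gene (grey circles) and variant histone gene (red diamonds) by histone class (x axis). Without a length or GC correction H2AFX, H2AFY and H2AFY2 sit above all 13 HIST H2A genes, and H3F3B sits among the HIST H3 genes. With library totals alone all 8 variants are above 0. With the length trend removed 5 of 43 HIST genes are called lower in place of 34, and fewer of all tested genes as well. With the GC trend removed H2AFX is at -1.45. Positions under either correction are not drawn.

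GC content nearly followed the order of the fold changes among the 8 genes, and the length of the longest transcript did not. GC content was 43.1% in H3F3B and H2AFV and 46.6% in H2AFZ, which fell, 53.2% in H1F0, 53.3% in H2AFY2, 54.9% in H2AFY, 66.4% in H2AFX and 68.6% in H1FX. Across the 8 genes Spearman's rho of GC content and the log2 fold change was 0.929, and across 7790 tested genes with a known transcript it was 0.194. For length it was -0.143 across the 8 with the longest coding transcript and 0.762 with the median one, and 0.395 across the 7790 genes with the longest. These are descriptions across genes that share the same 6 libraries. With a smooth GC trend removed, an alternative added after seeing the data, H2AFX fell (-1.45, edgeR adjusted p = 0.00281) and H1FX was at -0.03 (edgeR adjusted p = 0.965), while H3F3B (-1.08), H2AFZ (-1.07) and H2AFV (-1.01) stayed past the threshold. With a length trend removed instead, H2AFZ, whose transcript of 979 nt is the shortest of the 8, was at -0.26 (edgeR adjusted p = 0.621) and H1FX rose (1.43, edgeR adjusted p = 0.0130). Taking the median in place of the longest coding transcript, H2AFZ was at -1.16 (edgeR adjusted p = 0.0223) and H2AFV lost its call (-0.99, edgeR adjusted p = 0.0538). Of the 3 genes that fell, H3F3B alone passed under all 3 of these corrections. What part GC content or length plays in these results was not tested.

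**Figure D5:**
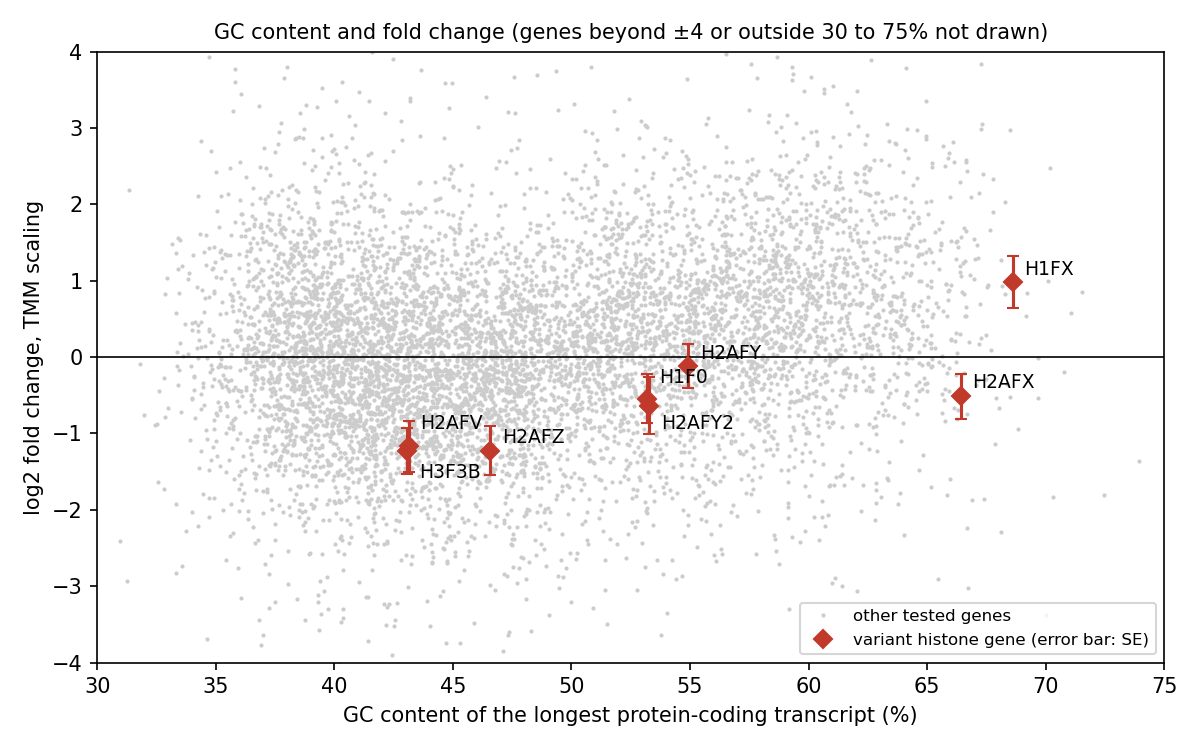
GC content of the longest protein-coding transcript (x axis, %) and log2 fold change with TMM scaling (y axis) for 8 variant histone genes (red diamonds, bars: SE) and the other tested genes (grey). The genes at 43.1% to 46.6% GC lie lowest and H1FX, at 68.6%, highest; with the GC trend removed H1FX is at -0.03.

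The mRNAs of the proteins that place variant histones differed in direction. Of 30 genes for histone variant chaperones and remodelers, all tested, 6 rose and 6 fell (edgeR, TMM), where 8.81% of all tested genes rose and 10.9% fell, with a median log2 fold change of 0.03 against 0.10 for all genes. With library totals alone 19 rose and 0 fell, a share near the 59.6% of all genes that rose on that scale. Those that rose by edgeR were subunits of the H3.3 chaperone HIRA, namely HIRA itself (1.48, adjusted p = 0.0445), UBN1 (1.16, 0.0257) and CABIN1 (2.36, 0.00235), then ATRX (2.48, 0.00108), which places H3.3 in heterochromatin, and the H2A.Z remodelers SRCAP (2.27, 0.00237) and EP400 (2.08, 0.00169). The genes that fell by edgeR were YEATS4 (-2.18, adjusted p = 0.0202), ACTL6A (-1.75, 0.0132), RUVBL1 (-1.31, 0.0105) and ZNHIT1 (-2.01, 0.0202), smaller subunits of those remodelers, with the chaperones NASP (-0.94, 0.0377) and SET (-1.09, 0.0207). Uncalled smaller subunits on the list went both ways: RUVBL2 (0.80, edgeR adjusted p = 0.105) and DMAP1 (0.55, 0.616) were positive and VPS72 (-1.13, 0.245) negative. On library totals alone YEATS4, ACTL6A and ZNHIT1 stayed negative, and RUVBL1, NASP and SET turned positive, none of the 6 called. ATRX, SRCAP and CABIN1 were called in each of 19 alternatives, and EP400 in all but the removed length trend. The call of HIRA was lost in 11 of 19 alternatives and that of NASP in 9, among them p-UPF1 IP replicate 3, 6 or 9 left out. UBN1 lost its call without any of the same libraries, with limma-voom and with either length trend removed. YEATS4, SET and ZNHIT1 lost theirs without replicate 3 or 6, ACTL6A without 3 or 9 and RUVBL1 without 6 or 9, and ZNHIT1 also without 9 or pre-IP replicate 1. The calls of YEATS4 and ZNHIT1 were also lost with the length trend removed, and that of SET with the GC trend removed or no filter. The fallers numbered 1, 1 and 2 without p-UPF1 IP replicate 3, 6 and 9. Pre-IP counts of the risers were low, from 23 for CABIN1 to 52 for UBN1 over 3 libraries. DAXX, the partner of ATRX, had a log2 fold change of 0.36 (edgeR adjusted p = 0.644) with TMM, and rose with library totals alone (1.84).

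Of 19 genes that form or degrade histone mRNA ends 17 were tested, 3 rose and 1 fell (edgeR, TMM), with a median log2 fold change of 0.30, where 8.81% of all tested genes rose and 10.9% fell. With library totals alone 12 rose and 0 fell, against 59.6% and 2.03% of all. SYMPK, a scaffold of both stem-loop and poly(A) end cleavage, had 1 and 473 counts. On the TMM scale it had 1.28, 0 and 0 CPM in pre-IP, against 63.2, 58.6 and 58.7 with p-UPF1, and a fitted log2 fold change of 6.46 (edgeR adjusted p = 2.03e-05) that rests on that 1 count. As a share of all counts, a scale on which most genes are higher, the ratio was 268 with an exact 95% counting interval of 47.9 to 10619. UPF1 rose by 1.70 on the log2 scale (edgeR adjusted p = 0.00461) and the exonuclease XRN1 by 1.79 (0.0477). FIP1L1, of the poly(A) cleavage complex, fell by 2.34 (0.00279), and lost its call without pre-IP replicate 1, where 72 of its 100 pre-IP counts lie, and with library totals alone. XRN1 had 23, 0 and 2 counts in pre-IP, and its call was lost in 10 of 19 alternatives, 5 of them with 1 library left out. UPF1 lost its call with the GC trend or the median-length trend removed. SLBP itself, at 143 counts in the control and 578 with p-UPF1, had a log2 fold change of -0.29 with TMM (edgeR adjusted p = 0.560) and 1.21 with library totals alone (0.00869). Of 10 further variant histone genes, most of them active in the germ line, CENPA, the centromeric H3, alone was tested (-1.28 with TMM, edgeR adjusted p = 0.228, and 0.22 with library totals alone), H3F3C had 2 and 0 counts, and the other 8 were listed at 0.

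The 5 tested genes of at least median abundance whose centred TMM log2 CPM profile over the 6 libraries was nearest to that of H2AFX, taken because it had the most counts over all libraries, were TPI1, HP1BP3, NT5C3B, GPX1 and BUB3, at Euclidean distances of 0.205, 0.243, 0.253, 0.259 and 0.274. Of the other variant histones H2AFY came closest (0.727, rank 314 of 4034 genes) and H1FX was farthest (1.88, rank 2701).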

How the data were processed

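Raw counts of reads for each gene symbol were deposited by the authors, with no normalization, in 6 columns that were all used. According to the submitters' processing notes, cutadapt 1.15, featureCounts (Subread 1.5.0p3) and STAR 2.5.2b were used with build hg19. Which annotation and strand setting were taken, and how reads matching several places were handled, is not given in the sources used here. Per the labels' protocols, ribosomal RNA was depleted and adapters were ligated to RNA fragments, so a gene's count also depends on its fragments.

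Counts of all genes were fitted with edgeR 4.0.16 in R 4.3.3 (filterByExpr, minimum count 10, TMM, quasi-likelihood F-test, Benjamini-Hochberg over 8070 genes at 0.05). The fit was tested on simulated counts drawn in proportion to library totals, without the difference in composition between these groups. That run does not bear on the choice of scaling. The SE is the log2 fold change divided by the square root of F. CPM are counts divided by the TMM-scaled library size, times 1e6. Alternatives used limma 3.58.1 (voom), DESeq2 1.42.0 and others given with the limits. Transcript features, positions and sequences were matched by symbol to GENCODE release 29 (GRCh38), which differs from the build of the table. Length and GC content were had for 7790 of the tested genes (96.5%). A 30-nt stretch counts as shared where it occurs, on either strand, in a transcript of another gene.

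The members and gene lists were chosen with earlier results of these data known. Named besides the members were list genes past the threshold, the most counted HIST gene per class and the 5 profiles nearest to the most counted member. Other genes were named after their values were seen (DAXX, SLBP, HIST1H2AC and HIST1H4H). Protein sequences were not used here.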

Additional observations from a re-analysis of the deposited data

How the results depend on the processing

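Each of the 19 alternatives refitted all genes; of 152 fold changes of the 8 variant histones 127 kept their sign and side of the threshold and 9 reversed. On library totals alone the calls numbered 4970 (4806 higher, 164 lower), 4 variant histones were higher and 0 lower, their median was 0.96, and 7 reversed: H2AFX 1.03, H2AFV 0.37, H2AFY 1.40, H2AFY2 0.92, H2AFZ 0.32, H3F3B 0.30 and H1F0 1.004. NASP (0.54), RUVBL1 (0.19), SET (0.47), HIST1H1E (1.45), HIST1H2BD (0.87), HIST1H3B (0.057), SLBP (1.21) and CENPA (0.22) also turned positive there. On that scale 6 had groups that did not overlap on the higher side and 0 on the lower, and scaled to the members' sum 3 and 1. Without a filter 1101 genes were higher, 2 variant histones were lower, H2AFV losing its call, and H2AFY was at 0.055 and HIST1H1E at 0.11, which DESeq2 put at 0.033. With the length trend removed 900 genes were called, 310 higher, and HIST1H1E (1.17), HIST1H2BD (0.52), HIST1H3B (0.26) and HIST1H4D (0.16) were positive; with the median length, added like the GC trend after seeing the data, 389 were higher and HIST1H1E was at 0.0599. With the GC trend removed the median was -0.94 and H1FX was at -0.032. RLE scaling, upper-quartile scaling, no filter, DESeq2 and the length trend each gave 1 variant histone higher, H1FX. Leaving out each library gave 791 to 1628 calls (273 to 795 higher, 518 to 833 lower), 0 to 1 variant histones higher and 1 to 3 lower (1, H3F3B, without p-UPF1 IP replicate 3). HIST1H1E ranged from -0.46 (without p-UPF1 IP replicate 3) to 0.49 (without pre-IP replicate 7), and was at 0.32 without p-UPF1 IP replicate 6. The cause was not tested.

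The labels do not pair the libraries. With a replicate block that joins libraries 1 and 3, 4 and 6, and 7 and 9 of the label numbers, 1656 genes were called, and 0 variant histones higher and 3 lower. Deviations from the group means correlated at 0.0920, 0.172 and 0.102 within these pairs, each library best with its own partner, which is a hint from the data and not the design. The thin pre-IP counts of H1FX, H2AFY2 and H2AFJ limit what depth can show.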
